A study of Arabidopsis thaliana with 12 samples.

Results

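Roots and shoots of Arabidopsis thaliana seedlings were compared after estradiol treatment of an estradiol-inducible CLE3 line. The comparison held 3 root arrays and 2 shoot arrays, 5 of the 12 arrays in the series, chosen by the treatment and organ in their titles. By their titles all 5 carried the same transgene and the same treatment. Per the labels, plants were grown for 7 days at 22 °C in continuous white light, their roots were exposed to the inducer for 24 h, and roots and shoots were then taken separately. The labels give the dose as 5 mM. Other work with this inducer uses micromolar amounts, and no label here settles the unit. Solvent-treated (DMSO) plants of the same line gave a second root and shoot comparison that shares no array with the first. No label tells whether replicate numbers stand for separate cultures, or whether a root and a shoot sample of the same number came from the same plants. The spread behind each p-value may therefore be technical. CLE3 was not among the features with a gene name here, so the induction itself was not analysed here.

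A seedling root takes up water and minerals, bears root hairs and holds a meristem under a root cap. The shoot carries out photosynthesis in green cotyledons and young leaves, and stomata in its epidermis exchange gas. CLE genes encode small secreted peptides that are read by receptor kinases at the cell surface and act in meristems, vascular tissue and responses to nutrients. In the estradiol system the hormone activates a chimeric transcription factor that turns on the transgene.

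Marker genes were read on these arrays to describe the organ labels. Markers were listed with earlier results of these data known, and an array with a root profile there had already been left out. The calls below are therefore no independent check of the labels. Of 17 listed root markers 6 were measured, and of 13 listed shoot markers 6 were measured. All 12 were higher in the organ they mark. The mean over the root markers was 10.08 to 10.18 in the root arrays and 5.96 to 6.18 in the shoot arrays, in log2 units of the deposited signal. The mean over the shoot markers was 6.20 to 6.97 in the root arrays and 10.46 to 10.50 in the shoot arrays. A sixth array is titled as the third estradiol shoot replicate. Its mean was 10.17 over the root markers and 6.89 over the shoot markers, both inside the range of the root arrays. It correlated at 0.985 with the root arrays and at 0.876 with the shoot arrays across features, and it was left out of all values below unless named. With that array kept as a shoot, limma called 0 features at an adjusted p under 0.05, and 5513 features had an unadjusted p under 0.05.

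Root and shoot transcriptomes differed widely under estradiol. Of 38408 features, 14080 (36.7%) differed between the organs at an adjusted p under 0.05 in limma. Among them 6737 (17.5%) were higher in roots and 7343 (19.1%) were higher in shoots. A difference of at least 3 on the log2 scale was reached by 808 features in the root direction and 750 in the shoot direction. At 5 or more the counts were 202 for roots and 55 for shoots. The median absolute difference over all features was 0.45, and the median distance from a difference to the end of its 95% interval was also 0.45. The median signed difference, root minus shoot, was -0.07. Among the 16548 genes that a feature named, 3256 (19.7%) were higher in roots and 3077 (18.6%) were higher in shoots. RNA was taken from whole organs, so fewer cells of a type and less RNA per cell cannot be told apart in any of these differences.

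**Figure D1:**
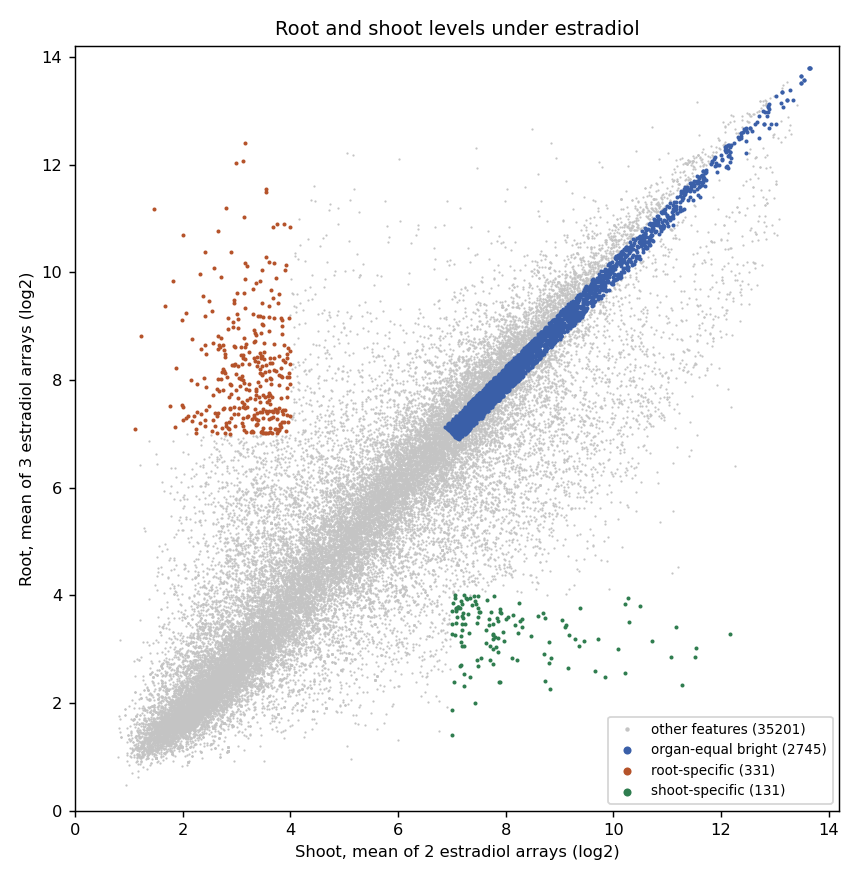
Mean level in 3 root arrays (vertical axis, log2) against mean level in 2 shoot arrays (horizontal axis, log2) for 38408 features under estradiol. The 331 root-specific features lie at the upper left, the 131 shoot-specific features at the lower right, and the 2745 organ-equal bright features along the diagonal.

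Organ-specific features were defined by level. A root-specific feature had a root mean of at least 7, a shoot mean of at most 4, an adjusted p under 0.05 in limma and no overlap between the arrays of the 2 organs. A shoot-specific feature met the same limits the other way round. For orientation, array medians lay between 5.01 and 5.04 and lower quartiles between 2.96 and 3.12. The deposited values carry no detection call. Levels near or below the lower quartile may be background, so the size of a difference from such a level is given on the deposited scale only, with no fold. The rule gave 331 root-specific features (0.862% of all) and 131 shoot-specific features (0.341%). They named 182 root-specific genes, 17 of them with a symbol, and 62 shoot-specific genes, 12 of them with a symbol. Root minus shoot was 3.13 to 9.71 over the root-specific features, with a median of 4.83. It was -3.06 to -8.95 over the shoot-specific features, with a median of -4.53.

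BGLU22, a beta-glucosidase related to the root enzyme PYK10, led the root-specific genes that have a symbol. Its log2 levels were 10.60, 10.23 and 10.31 in the 3 root arrays and 2.2 and 3.61 in the 2 shoot arrays. The organs were far apart, with a difference of 7.47 (SE 0.41, limma adjusted p = 9.64e-05). SBT4.12, a secreted protease of the subtilase family, read 10.30, 10.19 and 10.05 in roots and 3.67 and 2.62 in shoots. PDF2.5, a small cysteine-rich peptide of the plant defensin family, read 9.96, 9.88 and 9.55 in roots and 3.54 and 3.16 in shoots. For both genes every root array lay more than 6 log2 units above every shoot array, and the differences were 7.03 (SE 0.31) and 6.44 (SE 0.20).

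Several root-specific genes encode proteins of the cell wall. Prx37, a class III peroxidase that is secreted to the wall, read 9.09, 9.03 and 9.30 in roots and 2.62 and 3.42 in shoots, a difference of 6.12 (SE 0.26). The levels of sks16, which belongs to the multicopper oxidase-like SKU5 family, were 8.79, 8.76 and 8.89 in roots and 2.96 and 2.36 in shoots, a difference of 6.16 (SE 0.21). HRGP1, a hydroxyproline-rich structural glycoprotein, read 6.86, 6.98 and 7.23 in roots and 1.54 and 2.95 in shoots. The groups did not overlap for any of the 3 genes, although the 2 shoot arrays of HRGP1 differed by more than 1 log2 unit. GH9C1, a glycosyl hydrolase of the endoglucanase type, was higher in roots by 4.69 (SE 0.24). EXPA18, an expansin of root hairs, was higher by 4.49 (SE 0.31).

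The other root-specific symbol genes were of several kinds. UGT76B1, which attaches glucose to molecules of the defence response, read 8.93, 8.50 and 8.92 in roots and 2.56 and 2.86 in shoots. The difference was 6.07 (SE 0.20, limma adjusted p = 3.87e-05), and the ranges did not meet. UGT73B4, another glucosyltransferase, differed by 4.18 (SE 0.16), and GSTU22, a glutathione transferase, by 4.78 (SE 0.27). The serine carboxypeptidase-like genes SCPL15 and scpl16 differed by 4.37 (SE 0.13) and 4.22 (SE 0.30). MMP, a matrix metalloproteinase, differed by 4.71 (SE 0.20), and JAL31, a jacalin-related lectin, by 3.58 (SE 0.13). Regulators were few: AGL21, a MADS-box transcription factor, differed by 4.38 (SE 0.19), and ATC, a relative of the flowering regulator TFL1, by 4.65 (SE 0.19).

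Most root-specific genes have only a locus identifier here. AT3G28550 had the largest difference of the 182 on the deposited scale. Its root levels were 11.11, 11.08 and 11.33 and its shoot levels 1.62 and 1.3, a difference of 9.71 (SE 0.17). Both shoot values lay below the lower quartile of every array. AT3G54580 followed with 10.63, 10.68 and 10.76 in roots and 2.21 and 1.81 in shoots, a difference of 8.68 (SE 0.17). It lies next to HRGP1 in the TAIR10.1 gene order. In that order 10 pairs of root-specific genes were direct neighbours, made of 18 of the 182 genes. Organ-equal genes, defined below, gave 56 such pairs, made of 109 of 1027 genes. A larger class holds more neighbours by its size alone, and this was not allowed for. The counts therefore do not tell whether neighbours were more frequent in one class than in another. One run held AT1G52050, AT1G52060 and AT1G52070, with differences of 6.57, 8.40 and 8.02. Another run held AT3G23175, AT3G23180 and AT3G23190, with differences of 6.15, 5.04 and 4.50. Prx37 lies beside AT4G08780, whose difference was 6.23. Neighbours can be copies of one gene, and whether probes cross-react between them was not tested. No root-specific feature had values identical to those of another feature.

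Of the 12 shoot-specific genes with a symbol, 3 were on the stomata list and 3 on the list of leaf polarity and the shoot meristem. SPCH, the transcription factor that starts the stomatal lineage, read 2.39, 2.02 and 2.37 in roots and 8.89 and 8.75 in shoots. Root minus shoot was -6.56 (SE 0.17, limma adjusted p = 3.37e-05). FMA, which acts late in the lineage as guard cells form, read 2.89, 3.14 and 3.15 in roots and 7.56 and 7.85 in shoots, a difference of -4.64 (SE 0.17). STOMAGEN, a secreted peptide that raises the number of stomata, read 2.85, 3.1 and 3.50 in roots and 7.75 and 8.21 in shoots, a difference of -4.83 (SE 0.25). The root levels of FMA and STOMAGEN lay near the lower quartile of the arrays, and those of SPCH lay below it. MUTE, the regulator between SPCH and FMA, read 1.95, 2.05 and 1.86 in roots and 4.98 and 5.61 in shoots. It differed by -3.34 (SE 0.22) and missed the shoot-specific definition because its shoot mean was under 7. These were the 4 measured genes of the stomata list, and all 4 were higher in shoots.

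**Figure D2:**
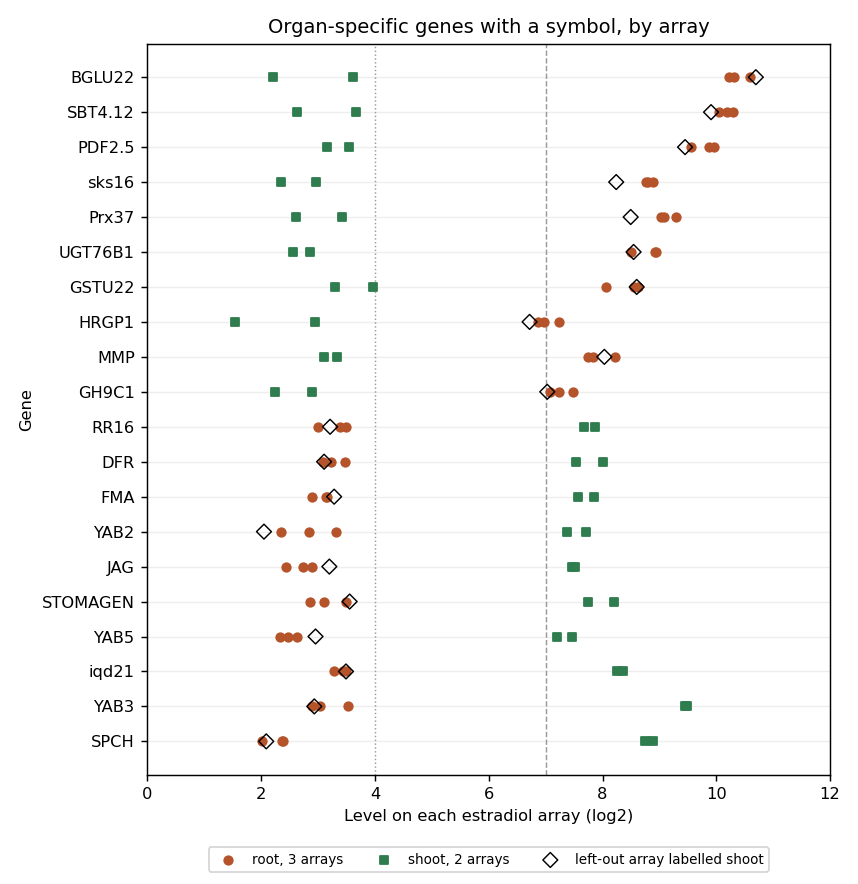
Log2 level on each estradiol array (horizontal axis) for the 10 root-specific and 10 shoot-specific symbol genes with the largest differences (vertical axis). Circles are 3 root arrays, squares 2 shoot arrays and open diamonds the left-out array labelled shoot; dotted and dashed lines mark the limits of 4 and 7. Roots and shoots do not overlap for any gene, and the diamonds lie with or near the circles.

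YABBY factors, which mark the lower side of leaf primordia, formed a second shoot-specific group. YAB3 read 3.03, 3.53 and 2.89 in roots and 9.48 and 9.45 in shoots, a difference of -6.31 (SE 0.22). YAB5 differed by -4.85 (SE 0.16) and YAB2 by -4.71 (SE 0.30). The 2 other measured genes of the list of leaf polarity and the shoot meristem were not called. PHV, a homeodomain factor of the upper leaf side, had a difference of -0.36 (SE 0.16). CLV3, the stem-cell peptide of the shoot meristem, had -0.50 (SE 0.16) at means of 1.41 in roots and 1.91 in shoots, below the lower quartile of every array.

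The other shoot-specific symbol genes were of several kinds. JAG, a zinc-finger factor that promotes leaf blade growth, read 2.43, 2.73 and 2.89 in roots and 7.47 and 7.51 in shoots, a difference of -4.81 (SE 0.18). RR16, a type-A response regulator of cytokinin signalling, differed by -4.48 (SE 0.19). DFR, an enzyme of anthocyanin synthesis, differed by -4.51 (SE 0.20). The calmodulin-binding family member iqd21 differed by -4.90 (SE 0.14), the light-signalling factor PIF7 by -4.29 (SE 0.30) and the sugar transporter SWEET1 by -3.12 (SE 0.15). Of the genes without a symbol, AT3G16660 read 3.41, 3.33 and 3.12 in roots and 12.12 and 12.21 in shoots, a difference of -8.88. AT4G22485 read 2.73, 3.19 and 2.67 in roots and 11.41 and 11.61 in shoots, a difference of -8.65. Both lie beside another shoot-specific gene. AT3G16670 next to the first differed by -8.20, and AT4G22490 next to the other by -6.37. In all, 4 pairs of shoot-specific genes were neighbours, with 8 of the 62 genes.

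The DMSO arrays gave a test of the organ-specific features in arrays that the definition did not use. In them limma called 35.3% of all features, 17.2% in the root direction and 18.1% in the shoot direction. All 331 root-specific features were called higher in roots there. All 131 shoot-specific features were called higher in shoots. The full level rule was met again by 296 of the 331 and by 111 of the 131. Of the others, the lowest root mean of a root-specific feature under DMSO was 5.95 and the highest shoot mean was 4.47. The median difference was 4.83 under estradiol and 4.98 under DMSO for the root-specific features, and -4.53 and -4.64 for the shoot-specific features. BGLU22 differed by 7.25 and SPCH by -6.79 under DMSO. The difference between the 2 organ differences was called for 0 of the 331 and 0 of the 131 features in limma, with 27 and 10 at an unadjusted p under 0.05. Over all 38408 features 1 was called and 1828 had an unadjusted p under 0.05, a smaller share than in either class. The estradiol arrays in this test had also defined the 2 classes, so no result is drawn from the larger shares. Of the symbol genes named above, sks16 differed by 6.16 under estradiol and 5.02 under DMSO, and EXPA18 by 4.49 and 5.29. For EXPA18 the unadjusted p of the treatment difference in limma was 0.33, and its DMSO shoot arrays read 3.91, 1.74 and 3.24. DFR differed by -4.51 and -5.22, with an unadjusted p of 0.0177 and an adjusted p of 0.984 in limma.

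Over all features the organ difference was similar with and without the inducer. Across 38408 features the differences under estradiol and under DMSO correlated at r = 0.942 (rho = 0.826), a description over features that share the same 10 arrays. Of the features called higher in roots under estradiol, 82.9% were called higher in roots under DMSO, and 84.4% the other way round. For shoots the shares were 73.6% and 77.7%. In all, 10987 features were called in the same direction in both comparisons and 4 in opposite directions. Those 4 have no gene name here.

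A test of the estradiol organ difference against the DMSO organ difference called 1 feature (0.0026% of 38408) in limma, and 1828 features had an unadjusted p under 0.05. The called feature has no gene name here and was known from earlier results of these data. Its levels under estradiol were 12.30, 12.28 and 11.94 in roots and 5.60 and 4.73 in shoots, a difference of 7.01 (SE 0.29). Under DMSO it read 7.35 and 6.83 in roots and 5.05, 5.16 and 5.58 in shoots. The order of these values is plain: roots with estradiol were far above roots with DMSO, and the shoot arrays of both treatments overlapped.

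**Figure D3:**
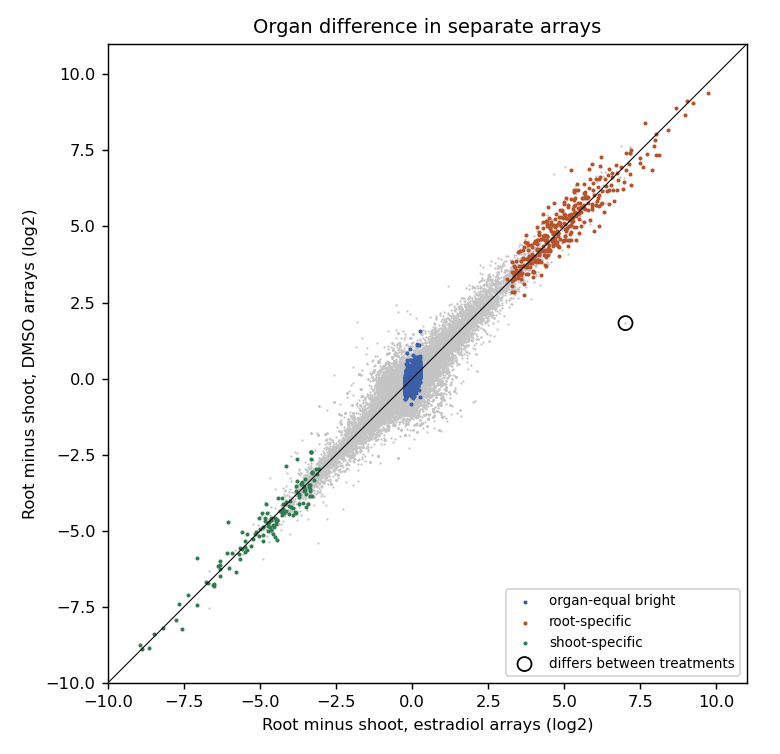
Root minus shoot under DMSO (vertical axis, log2) against root minus shoot under estradiol (horizontal axis, log2) for 38408 features, with the line of equality. Root-specific features lie at the upper right, shoot-specific features at the lower left and organ-equal features at the centre; the circle marks the feature that differed between treatments, at 7.01 and 1.82.

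The 6 symbol genes with the smallest unadjusted p in the same test, 3 in each direction, did not pass after adjustment. BHLH92, a basic helix-loop-helix factor, had an organ difference of 0.23 under estradiol and -0.64 under DMSO (limma adjusted p = 0.853). RECQ4B, a DNA helicase, had 0.21 and -0.36. GPDHC1, a glycerol-3-phosphate dehydrogenase, had 0.42 and -0.15. In the other direction CYP71B25, a cytochrome P450, had -1.01 and -0.10. NHL22 had -0.57 and 0.26, and JAG had -4.81 and -4.11 (limma adjusted p = 0.944).

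Gene lists by function were then read against the shares of all genes called, 19.7% higher in roots and 18.6% higher in shoots. The first lists hold genes known for a role in one organ. Endoplasmic reticulum bodies store beta-glucosidases for defence. Of 10 measured genes on the list of these bodies and root beta-glucosidases, 8 were higher in roots and 1 in shoots, with a median difference of 2.30. The list also holds lectins and a regulator, so not all its members are parts of the bodies. PYK10, the main beta-glucosidase of these bodies in roots, read 13.13, 13.15 and 13.20 in roots and 11.40 and 11.70 in shoots, a difference of 1.61 (SE 0.15). The related BGLU21 differed by 6.21 (SE 0.25) and the regulator NAI1 by 2.32 (SE 0.15). The exception was JAL23, a jacalin-related lectin, at -1.38 (SE 0.19) between means of 2.72 and 4.1. AT1G54010 was not called, at -0.49 (SE 0.16). Of the 10 genes 2, BGLU22 and JAL31, were root-specific.

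Regulators of the root meristem, the root cap and lateral roots were higher in roots for 5 of 6 measured genes, with a median difference of 2.39. LBD29, which acts in lateral root formation, read 6.06, 6.05 and 6.17 in roots and 2.87 and 2.76 in shoots, a difference of 3.28 (SE 0.13). JKD, a zinc-finger factor of the root ground tissue, read 8.86, 8.81 and 8.78 in roots and 6.22 and 6.61 in shoots, a difference of 2.41 (SE 0.16). PUCHI, a regulator of lateral root primordia, had 0.46 (SE 0.18) and was not called. Both measured root-hair expansins were higher in roots, EXPA7 by 2.41 (SE 0.18) and EXPA18 as given above.

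Nuclear genes of photosynthesis were higher in shoots throughout. All 15 measured genes of 3 lists were called in that direction, with a median difference of -3.20, and none was shoot-specific. NdhL, a subunit of the chloroplast NAD(P)H dehydrogenase-like complex, read 6.03, 6.86 and 7.39 in roots and 11.06 and 11.31 in shoots, a difference of -4.43 (SE 0.39). LHCB4.2, a minor antenna protein of photosystem II, differed by -3.88 (SE 0.25), and SBPASE, an enzyme of the Calvin cycle, by -3.67 (SE 0.29). RCA, which keeps Rubisco active, read 8.49, 9.28 and 9.92 in roots and 11.56 and 11.57 in shoots, a difference of -2.33 (SE 0.40). The least separated of the 15 was PGRL1B, a factor of cyclic electron transport, at -0.77 (SE 0.22, limma adjusted p = 0.0417). Its call was lost without root replicate 1, root replicate 2 or either shoot replicate.

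These 15 genes varied together among the root arrays. Root replicate 1 was the lowest root array for 13 of them and root replicate 3 the highest for 14. Their mean level was 6.63, 6.98 and 7.38 in the 3 root arrays and 9.95 and 10.14 in the 2 shoot arrays. The median SD over the root arrays was 0.40, against 0.11 over the shoot arrays and 0.18 for all features in roots. Root and shoot arrays overlapped for 0 of the 15. The shoot markers show the same range in roots, since 4 of their 6 measured genes are photosynthesis genes. The part of green tissue in the root samples in this spread was not tested.

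Enzymes of chlorophyll synthesis were higher in shoots for 3 of 4 measured genes. PORB, which reduces protochlorophyllide in light, read 6.88, 6.78 and 6.72 in roots and 10.52 and 10.61 in shoots, a difference of -3.77 (SE 0.13). CHLM, a methyltransferase of the same route, differed by -2.57 (SE 0.15). HEMA2, an isoform of the first enzyme of tetrapyrrole synthesis, read 5.06, 5.41 and 5.25 in roots and 5.29 and 5.40 in shoots and was not called. HPR, an enzyme of photorespiration, differed by -3.24 (SE 0.39).

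Genes encoded in the chloroplast had a smaller median difference than these nuclear genes. Of 63 measured genes 48 were higher in shoots, 0 were higher in roots and 15 were not called, with a median difference of -0.90. The largest difference belonged to psbM, a small subunit of photosystem II, with 7.78, 8.13 and 8.55 in roots and 10.98 and 10.96 in shoots. It differed by -2.82 (SE 0.24). At the other end, psbA, which encodes the D1 protein of photosystem II, read 13.39, 13.38 and 13.39 in roots and 13.28 and 13.28 in shoots. The difference of 0.11 (SE 0.12) was not called. It was -0.01 with quantile normalization. Of 30 genes with a mean of at least 12, 17 were called and the median difference was -0.46. Of 33 genes with a lower mean, 31 were called and the median difference was -1.49. The highest value in the table was 13.84, and the part of the upper end of the scale in the small differences was not tested.

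**Figure D4:**
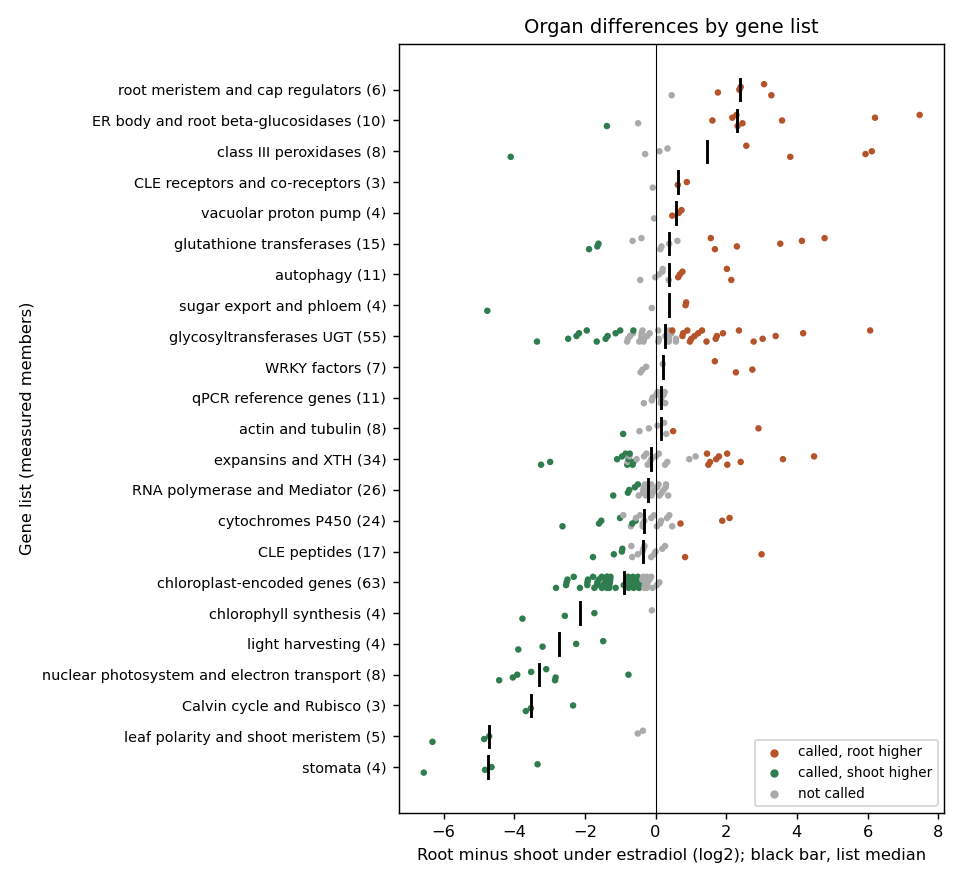
Root minus shoot under estradiol (horizontal axis, log2) for the measured members of 23 gene lists (vertical axis, number of members in brackets). Points are genes, coloured by whether limma called them, and black bars are list medians; stomata and photosynthesis lists lie left of 0 and root meristem and endoplasmic reticulum body lists right of 0.

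Sugar transporters went both ways. SWEET11, which exports sucrose for phloem loading in leaves, read 5.45, 6.38 and 6.40 in roots and 10.92 and 10.75 in shoots, a difference of -4.76 (SE 0.32). SWEET16 and SWEET17, which transport sugars across the vacuole membrane, were higher in roots by 0.85 (SE 0.19) and 0.87 (SE 0.14). The call of SWEET16 was lost without shoot replicate 1. SWEET13 was not called, at -0.11 (SE 0.24). Root levels of SWEET11 were above the array median, so it was not shoot-specific.

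Of 17 measured CLE peptide genes, the family of the induced gene, 2 were higher in roots, 4 were higher in shoots and 11 were not called. Beside 36.7% of all features called, these counts give no result about the family as a whole. The median difference was -0.34, beside a median of -0.07 over all genes. CLE14, a root peptide linked to phosphate shortage, read 6.22, 6.44 and 6.70 in roots and 3.18 and 3.72 in shoots, a difference of 3.0 (SE 0.23, limma adjusted p = 0.000274). CLE42 read 6.20, 6.40 and 6.43 in roots and 8.06 and 8.16 in shoots, a difference of -1.77 (SE 0.14). CLE41, whose peptide acts in vascular tissue as CLE42 does, had means of 7.79 and 8.14 and was not called, at -0.34 (SE 0.14). CLE44, which encodes the same peptide as CLE41, was organ-equal at 0.19 (SE 0.17). CLE25 had 5.91, 5.88 and 6.14 in roots and 5.83 and 6.12 in shoots, so the organs overlapped. CLE14 and CLE42 differed under DMSO too, by 2.92 and -1.85. Of 3 measured receptor kinases on the CLE receptor list, MOL1 was higher in roots by 0.63 (SE 0.16) and AT4G28650 by 0.88 (SE 0.13). The call of MOL1 was lost without any 1 root replicate and without shoot replicate 1. AT1G08590 was not called, at -0.08 (SE 0.16).

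Cell wall and secondary metabolism families held members on both sides. Over all genes 19.7% were higher in roots and 18.6% in shoots, and no family was tested against these shares. Of 34 expansins and xyloglucan-modifying enzymes, 10 were higher in roots, 10 were higher in shoots and 14 were not called. EXPA8 was the most shoot-sided at -3.24 (SE 0.21), and XTH21 was higher in roots by 3.61 (SE 0.20). Of 8 class III peroxidases 4 were higher in roots and 1 in shoots. The shoot-sided one was PRXCA, which read 1.51 in each root array and 5.58 and 5.63 in shoots, a difference of -4.1 (SE 0.13). PRXR1 read 12.37, 12.49 and 12.39 in roots and 12.06 and 12.10 in shoots and was not called, at 0.34 (SE 0.13).

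Of 55 UDP-glycosyltransferases 19 were higher in roots and 11 in shoots. Beside 19.7% of all genes higher in roots and 18.6% in shoots, the counts in this paragraph give no result about a family as a whole. The UGT73 family gave both directions: UGT73B3 was higher in roots by 3.40 (SE 0.17), and UGT73C6, a flavonoid and brassinosteroid glucosyltransferase, had -3.35 (SE 0.35). Of 15 glutathione transferases 6 were higher in roots and 3 in shoots. GSTU25 was higher in roots by 4.14 (SE 0.20), while GSTU18 had -1.88 (SE 0.17) and GSTL3 had -1.65 (SE 0.15). Of 24 cytochromes P450 3 were higher in roots and 6 in shoots, from CYP71B23 at 2.09 (SE 0.17) to CYP71B35 at -2.63 (SE 0.24). Of 7 WRKY transcription factors 3 were higher in roots, and WRKY42, a regulator of phosphate balance in roots, read 6.0, 6.86 and 6.59 there against 3.67 and 3.82 in shoots. Both measured type-A response regulators were higher in shoots, ARR15 by a root minus shoot difference of -2.01 (SE 0.32) and RR16 as given above.

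Organ-equal bright features were defined as those with a mean of the root and shoot means of at least 7 and an absolute difference under 0.25. Of 9403 bright features 2745 met this (29.2%). An absolute difference under 0.25 is not proof of equality with 5 arrays. The 95% interval stayed within 0.5 on either side for 1287 of the 2745 and within 0.25 for 0. They named 1028 genes, 28.6% of 3594 bright genes, and 139 of these have a symbol. At the edge of the band lay LSM6B and rpl14 inside and TKL and accD outside, all at -0.25 after rounding and none of them called.

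In the DMSO arrays 2070 of the 2745 features (75.4%) again lay within 0.25. The share was 28.9% over all bright features and 9.76% over the bright features outside the band. The median absolute difference of the organ-equal features under DMSO was 0.14 and the highest was 1.58. Under DMSO 64 of them (2.33%) were called, against 67.7% of the other bright features. An absolute DMSO difference of at least 0.5 was found for 67 features and of at least 1 for 4. Among the symbol genes, CCS, the copper chaperone of superoxide dismutase, had 0.17 under estradiol and 0.71 under DMSO, CDI had -0.20 and -0.64, and PHOS32 had 0.22 and 0.50. The difference between treatments was not called for any of the 3.

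Of the 8 organ-equal symbol genes that the naming rule took for high signal and narrow intervals, 4 were chloroplast genes, namely psbA, psaB, petB and petG. Their means of 13.11 to 13.33 lay near the highest value in the table, 13.84. The part of the upper end of the scale in their small differences was not tested. GAPC2, a glyceraldehyde-3-phosphate dehydrogenase of the cytosol, read 11.61, 11.44 and 11.50 in roots and 11.35 and 11.34 in shoots. Its difference of 0.17 had a 95% interval of -0.16 to 0.50, and with quantile normalization it was 0.32. RBP45B, an RNA-binding protein, read 10.60, 10.52 and 10.50 in roots and 10.70 and 10.61 in shoots, so the ranges lay side by side without overlap. FATB, a thioesterase that ends fatty acid synthesis in plastids, read 10.39, 10.41 and 10.45 in roots and 10.28 and 10.19 in shoots. NIG, a GTPase that interacts with a viral nuclear shuttle protein, read 9.82, 9.88 and 9.86 in roots and 9.91 and 9.67 in shoots, and the organs overlapped.

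Reference genes for quantitative PCR were measured for 11 loci, and 0 of them were called in limma, against 36.7% of all features. None had an unadjusted p under 0.05 either (0 of 11). Their differences ran from -0.33 to 0.27. Of the 6 bright ones 5 were organ-equal. PEX4, a ubiquitin-conjugating enzyme of peroxisomes, read 7.35, 7.09 and 7.17 in roots and 7.26 and 7.11 in shoots, a difference of 0.02 (95% interval -0.35 to 0.39). AT4G26410 had 0.06, AT2G32170 had 0.15 and AT4G34270 had 0.16. AT2G28390 fell just outside the band at 0.26, with 9.34, 9.40 and 9.27 in roots and 9.06 and 9.10 in shoots. All its root values were above its shoot values, and its difference under DMSO was 0.09. AT1G58050 had means of 2.56 and 2.67, below the lower quartile of every array, so its small difference says little.

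**Figure D5:**
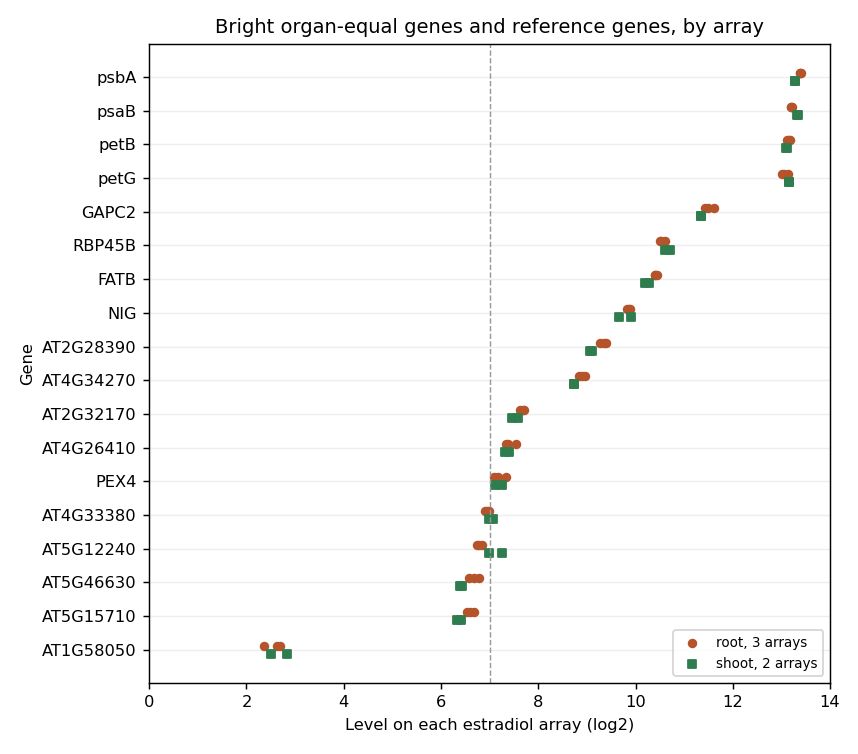
Log2 level on each estradiol array (horizontal axis) for 8 organ-equal genes and the other measured reference genes (vertical axis). Circles are 3 root arrays, squares 2 shoot arrays, and the dashed line is the brightness limit of 7; the organs lie within 0.33 of each other for every gene shown.

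Other genes of general cell functions were not all organ-equal. Of 26 subunits of RNA polymerases and Mediator, 21 were not called and 5 were higher in shoots, and 5 of the 9 bright ones were organ-equal. Over all genes 19.7% were higher in roots and 18.6% in shoots, and 28.6% of bright genes were organ-equal. The 5 calls higher in shoots are near the share of all genes and give no result about this group. MED31, a Mediator subunit, read 7.82, 7.77 and 7.86 in roots and 7.78 and 7.91 in shoots. NRPD2B was the most shoot-sided at -1.20 (SE 0.34, limma adjusted p = 0.0381), a call lost without root replicate 1, without either shoot replicate and with array weights. Of 4 vacuolar proton pump subunits 3 were higher in roots, VHA-A3 by 0.73 (SE 0.13) and VHA-A1 by 0.66 (SE 0.14). The call of VHA-A1 was lost without root replicate 2 or shoot replicate 2.

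Tubulins and autophagy genes differed by member. TUB1 read 5.91, 5.72 and 5.92 in roots and 3.07 and 2.81 in shoots, a difference of 2.91 (SE 0.16). TUB5 had -0.92 (SE 0.15), while TUA6 was not called at 0.05 (SE 0.14). Of 11 autophagy genes 5 were higher in roots and 6 were not called, beside 19.7% of all genes higher in roots. ATG8H, a ubiquitin-like protein of the autophagosome membrane, read 8.06, 8.49 and 8.65 in roots and 5.99 and 6.52 in shoots, a difference of 2.14 (SE 0.25). ATG8F, of the same family, read 9.10, 9.54 and 9.64 in roots and 9.26 and 9.61 in shoots and was organ-equal at -0.01 (SE 0.22). GI, a clock component, was higher in roots by 0.68 (SE 0.19, limma adjusted p = 0.0352). That call was lost without any 1 root replicate and without shoot replicate 1.

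Annotated gene span was described by class, and no difference between classes was tested. The median was 2636 bases for organ-equal genes, 2580 for all bright genes, 2028 for root-specific, 1862 for shoot-specific and 1906 for all genes. The spans include introns and come from the TAIR10.1 gene table. Root-specific genes lay on all 5 nuclear chromosomes, with 49 on chromosome 1, 28 on 2, 42 on 3, 26 on 4 and 37 on 5. On chromosome 1 that is 26.9% of them, and the chromosome holds 25.8% of all measured genes.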

How the data were processed

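Total RNA was measured on one-colour Affymetrix arrays after sense-strand labelling. The deposited log2 values were used as given. The submitters' processing notes name Affymetrix Expression Console 1.3 as the authors' software, with settings not given in the sources used here. No label states the log2 scale, which was read from the values (0.193 to 13.8). Of 38408 features, 16722 had 1 gene in the platform annotation, 759 had several and 20927 stay unnamed here. Names were updated with the RefSeq gene table (TAIR10.1), in which 16670 features matched. For a gene with several features, the feature with the highest mean over the 5 arrays was taken. On every array, 7132 features had the same values as another feature.

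Groups came from sample titles. Another label field, the source name, gives estradiol for all root arrays and DMSO for all shoot arrays. It conflicts with the titles and was not used. The root array titled DMSO replicate 3 had a shoot profile and was also left out. Organ differences were fitted with limma (version 3.58.1, R 4.3.3, lmFit then eBayes, two-sided) once for the estradiol arrays and once for the DMSO arrays. The difference between them was fitted with 4 group means on 10 arrays. Benjamini-Hochberg adjustment ran over all features, with a threshold of 0.05. The fit was tested on simulated data. Of 38 gene lists 6 had no measured member, and 5 entries whose symbol belonged to another locus were left out.

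The members and lists were chosen with earlier results of these data known. The naming rule took the 10 symbol genes with the largest differences of each specific class, 8 high-signal organ-equal genes, the edges of the band and up to 4 members per list. It also took all reference genes, 3 genes in each direction for the treatment difference, 1 unnamed feature, and 2 genes without a symbol per class. Other genes named were chosen after their values were seen. The number of arrays limits the precision.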

Additional observations from a re-analysis of the deposited data

Results flagged for a closer look

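The organ difference of 1 feature with no gene name here was 5.19 log2 units larger under estradiol than under DMSO (SE 0.41, limma adjusted p = 0.0294), which is why it is listed. It was higher in roots than in shoots in both comparisons, by 7.01 and by 1.82. The call was kept without shoot estradiol replicate 1 and without root estradiol replicate 3, and it was lost when any 1 of the other 8 arrays was left out. The left-out array labelled shoot estradiol replicate 3 read 7.35 for this feature, beside 11.94 to 12.30 in the 3 root estradiol arrays, 6.83 and 7.35 in the 2 root DMSO arrays and 4.73 to 5.60 in the 5 shoot arrays. Groups of 2 or 3 arrays were too small for a check of single outlying arrays.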

How the results depend on the processing

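With the array titled shoot estradiol replicate 3 kept as a shoot, 0 features, 0 root-specific features, 0 shoot-specific features and 0 of the named genes were called in limma, with 5513 features at an unadjusted p under 0.05. With the root DMSO array kept as titled, 0 root-specific and 0 shoot-specific features were called in the DMSO arrays, and with all 12 arrays 0 features differed between treatments. Leaving out 1 estradiol array at a time gave 10378 to 11816 called features, 2663 to 2755 organ-equal, 308 to 350 root-specific and 119 to 145 shoot-specific features, and 63 to 66 called genes of the 70 called among those the naming rule took. The test of the difference between treatments gave 0 to 23 features when 1 array was left out, with the 23 without root estradiol replicate 3. Restricting the fit to features with 1 gene gave 7409 called, 1033 organ-equal, 182 root-specific and 62 shoot-specific features, by construction fewer. A fold threshold of 2 left 4401 called features and an adjusted p under 0.01 left 8577. Organ-equal features numbered 4943 with an absolute difference under 0.5, 4235 with a mean of at least 6, 1556 with a mean of at least 8 and 1287 with a 95% interval within 0.5. Root-specific and shoot-specific features numbered 109 and 31 with the low organ at most 3, 549 and 379 with at most 5, and 170 and 46 with the high organ at least 8. With 4 group means on 10 arrays, median-centred arrays, quantile normalization, limma-trend, array weights, a minimum mean of 5 and identical features collapsed, called features ranged from 12219 to 15096. With quantile normalization 331 of the 331 root-specific and 125 of the 131 shoot-specific features were kept. No called difference of a named gene changed sign under any alternative run.

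With the replicate number as a block, 10491 features were called, 9992 of them among the 14080, and the 331 root-specific and 131 shoot-specific features were all kept. Of the genes the naming rule took, 64 were called with the block and 70 without it. Among the genes named in the text, GI, SWEET16, MOL1, VHA-A1, GPDHC1 and AT1G77750 were called without the block and not with it. The test of the difference between treatments then gave 0 features. The differences between replicates 1 and 2 correlated at 0.0439 between organs under estradiol and at 0.104 under DMSO, and with 2 pairs the numbers are not known to pair the samples. Signal over background was not part of the table, so detection could not be judged.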

Other observations

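Small families with several organ-equal members were looked up after the organ-equal genes had been seen, so their counts are a description. All 3 bright LSM genes, which encode subunits of the ring that binds U6 and decaying messenger RNA, were organ-equal, namely LSM3B, LSM6A and LSM6B. LSM6B lay at the edge of the band, at -0.25 after rounding, and outside it under DMSO at -0.35. Of 6 bright exocyst subunits, which tether secretory vesicles, SEC6, SEC10 and SEC15A were organ-equal, while 3 of all 8 measured were higher in roots. Of 7 bright PRA1 genes, which encode membrane proteins of vesicle traffic, 4 were organ-equal, and 5 of 14 measured were higher in roots. Of 11 bright ubiquitin-conjugating enzymes 3 were organ-equal, as were 3 of 8 bright ubiquitin proteases. Of all bright genes 28.6% were organ-equal, and of all genes 19.7% were higher in roots.

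Short lists not described above had mixed members. RPN12b, a proteasome subunit, was higher in shoots at -1.13 (SE 0.17), and its homologue RPN12a had 0.40 (SE 0.14). The ribosomal protein gene AT1G77750 had 0.61 (SE 0.17). EIF4A-2, a translation initiation factor, had 0.46 (SE 0.15), and AT1G29550 of the same list was higher in shoots at -0.99 (SE 0.21). Neither of 2 glucosinolate genes was called, UGT74B1 at 0.38 (SE 0.17) and AOP3 at 0.12 (SE 0.21), nor were the defence genes THI2.1 at -0.15 (SE 0.15) and PDF1.2 at 0.04 (SE 0.23). PRX52, a class III peroxidase, read 4.67, 3.87 and 4.13 in roots and 4.82 and 3.40 in shoots and was not called under estradiol. Under DMSO it was called higher in roots by 0.82 (limma adjusted p = 0.00638), and the difference between treatments had an unadjusted p of 0.218.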
